A study of Mus musculus with 24 samples.

Results

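The nuclear genes of oxidative phosphorylation were followed across 7 mouse cell lines profiled on 24 one-colour Agilent arrays. Genes were taken where a probe with a curated RefSeq messenger RNA accession belonged to a protein-coding symbol beginning with Ndufa, Ndufb, Ndufc, Ndufs, Ndufv, Sdha, Sdhb, Sdhc, Sdhd, Uqcr, Cox4, Cox5, Cox6, Cox7, Cox8 or Atp5. This gave 95 genes, read by 117 probes, of 22881 genes with a symbol among 45547 gene names and 56488 probes. A further 5 symbols fitted the rule but were not analysed here (Cox5b, Ndufb1, Ndufb4b, Ndufb4c and Ndufs5). The name rule brought in 28 accessory and 7 core subunits of complex I with 8 Ndufaf assembly factors, 4 subunits of complex II with 4 Sdhaf assembly factors, 8 genes of complex III, 11 common subunits and 8 tissue-restricted or conditional isoforms of complex IV, and 17 genes of complex V. Ndufa4 and its relative Ndufa4l2, named for complex I, were counted with complex IV. Of the 95 genes, 90 were well above background on all 24 arrays.

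Oxidative phosphorylation is carried out in the inner mitochondrial membrane. Complexes I and II pass electrons from NADH and succinate to ubiquinone, complex III passes them on to cytochrome c, and complex IV hands them to oxygen, while complex V uses the proton gradient to make ATP. Most subunits are encoded in the nucleus, and their genes are known to respond together to a small set of transcription factors and coactivators, among them NRF1, the ETS factor GABP, the estrogen-related receptor alpha and PGC-1alpha.

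B16F1-GFP-M (M, 3 arrays) is the parental line, derived from the B16F1 mouse melanoma and carrying GFP, as all 5 melanoma lines do. B16F1-GFP-D (D, 4 arrays) was recovered from mice after long dormancy in a model set up by immunotherapy, and B16F1-GFP-DB#1 (4 arrays), B16F1-GFP-DB#2 (3 arrays) and B16F1-GFP-DB#3 (3 arrays) are second-generation dormant lines from a brain site. M0 (4 arrays) and J365 (3 arrays) are labelled as myeloid lines, and the labels do not tie them to the leukemia lines that the study describes. All their titles carry the tag p20, which no melanoma title has. The dormant cells were expanded in culture before RNA was taken, so the arrays describe growing cells, and the growth medium (DMEM with 10% FBS) was given for the melanoma lines alone. Nothing in the labels says that arrays of a line came from separate cultures, so p-values measure the spread between these samples only, which may be technical.

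Each value below is a level, the log2 of the processed signal less the 75th percentile of its own array, so that a positive difference is a gain relative to the rest of the array. Levels were compared between lines for 1 gene at a time and never between genes. The melanoma lines carried melanocyte transcripts, with a mean level of Dct between 9.27 and 9.44 and of Mlana between 9.23 and 9.37, and all 7 melanocyte genes listed were well above background on all 17 melanoma arrays. On the 7 arrays of M0 and J365 Dct, Mlana and Tyrp1 were never well above background, Pmel was on 3, and Mitf, Tyr and Sox10 were on all 7 at lower levels (line means of Mitf 1.24 and 2.43, against at least 6.57 in the melanoma lines). Of 10 myeloid and blood genes 7 were read on all 7 arrays of M0 and J365, while Kit, Cebpa and Cd33 were read on none. The pan-leukocyte gene Ptprc was read on none of the melanoma arrays, but Csf1r, Itgam and Kit were read on all 17 and Coro1a on 16. Between 43.6% and 53.8% of probes were well above background on 23 arrays. D replicate 3 stood apart at 89.9%, and results that use D are given without it where that matters. The arrays came from 3 slides of 8, and every line was present on each slide, so differences are also given within slides.

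**Figure D1:**
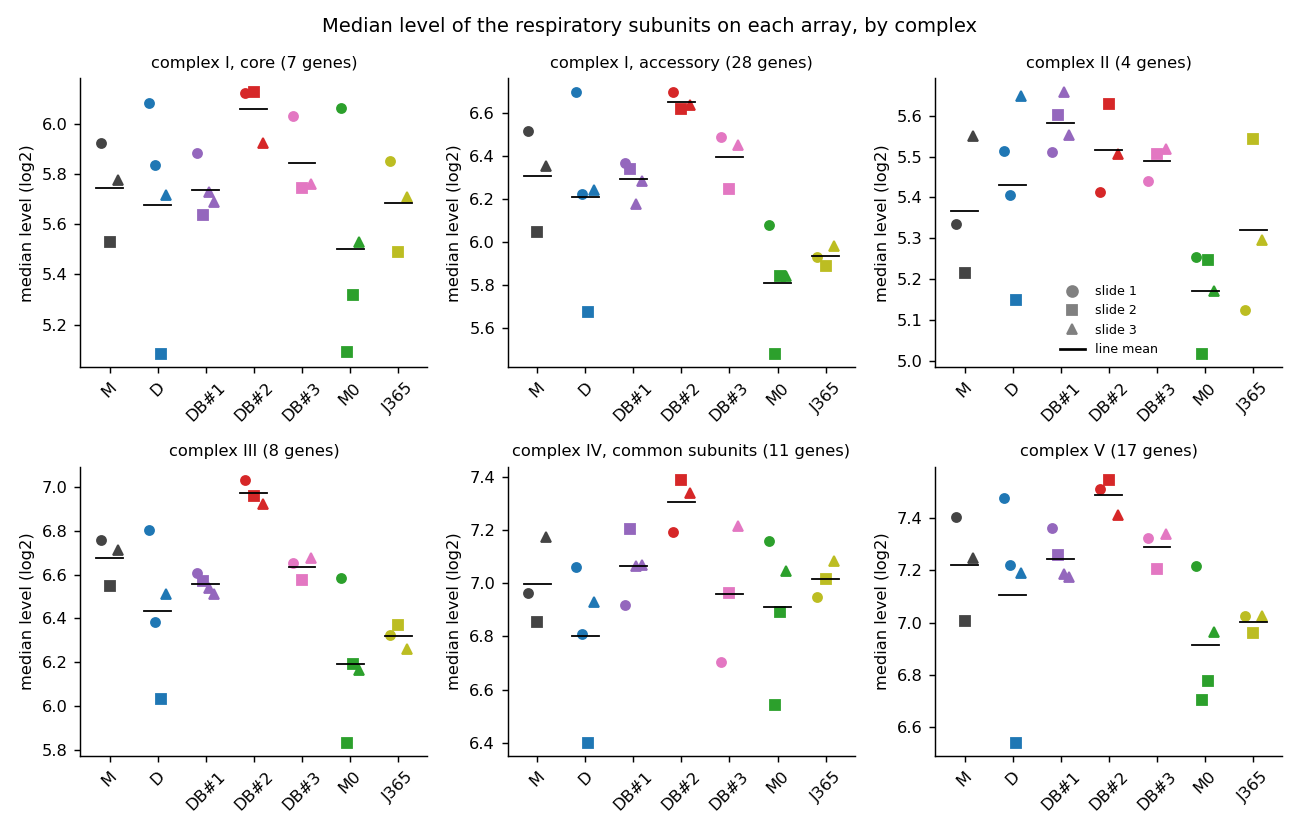
Median level of the subunits on each array (log2 of the processed signal less the array's 75th percentile, y axis) by cell line (x axis). Each complex has its own panel, with the core and accessory subunits of complex I apart. The shape of a point gives the slide, and a bar gives the mean of a line. For all subunits together, a median that is not drawn, the 3 DB#2 arrays sit between 6.70 and 6.87. In that median D replicate 3, at 5.85, lies below the other D arrays.

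The median level of the 78 subunits read on every array was 6.55, 6.25 and 6.70 in M, and 6.80, 6.39, 5.85 and 6.38 in D. It was 6.46, 6.42, 6.57 and 6.38 in DB#1, 6.62, 6.43 and 6.58 in DB#3, and 6.75, 6.87 and 6.70 in DB#2. The DB#2 arrays were thus at or above the highest array of M, DB#1 and DB#3, but 1 D array, D replicate 1, fell inside their range. In the myeloid lines the median was 6.44, 6.02, 5.67 and 5.92 in M0 and 6.21, 6.18 and 6.13 in J365, and J365 lay within the range of M0.

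DB#2 was the melanoma line in which the respiratory chain genes sat highest. Against M, 85 of the 91 genes tested had a difference above 0, with a median of 0.32 (0.02 over all 20950 genes tested). The shift ran through every complex: the difference was above 0 for 7 of 7 core and 26 of 28 accessory subunits of complex I (medians 0.27 and 0.25), 4 of 4 of complex II (0.32), 8 of 8 of complex III (0.41), 11 of 11 common subunits of complex IV (0.34) and 17 of 17 of complex V (0.37). All 3 arrays of DB#2 lay above all 3 arrays of M for 46 of the 91 genes (50.5%), where 12.6% of all genes tested did so, and no gene of the group lay wholly below M (8.85% of all genes). Gene by gene the differences were small beside the spread within lines, in a model that has no term for the slide. A single gene, Cox7a1, passed the test (limma, Benjamini-Hochberg adjusted p under 0.05), as 3.44% of all genes did, and 24 had an unadjusted p under 0.05. The share of all genes under that unadjusted cut is not given, here or for the other lines below. Such counts are therefore not set against a background.

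Within slides, the median difference between DB#2 and M was 0.22, 0.54 and 0.16 on slides 1, 2 and 3. With the slide as a block 6 of the 91 genes passed (6.59%), among them Atp5c1, Atp5a1 and Uqcrh, which is near the 5.31% of all genes. When D replicate 3 was also left out, a fit added after the data had been seen, 20 passed (22%, against 7.34% of all genes). The count of calls moved with the scaling, to 10 after quantile normalization (3.86% of all genes) and 31 with unscaled signals (5.99% of all genes), where all genes tested moved by a median of 0.25, but the median of the group lay 0.23 to 0.30 above that of all genes under each of these scalings.

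Against D, a comparison that holds no M array, DB#2 was higher for 10 genes and lower for 0, while 6.34% of all genes tested were called (3.9% higher and 2.44% lower). This pair of lines was picked with earlier results of these data known. The difference was above 0 for 86 of 91 genes, with a median of 0.34 (0.03 over all genes), and the DB#2 arrays lay wholly above the D arrays for 28 (30.8%) against 7.48% of all genes. The called genes were 3 accessory subunits of complex I (Ndufa12, Ndufb6 and Ndufc2), 3 genes of complex III (Uqcr11, Uqcrh and Uqcrc2), 2 of complex IV (Ndufa4 and Cox7b) and 2 of complex V (Atp5b, the catalytic beta subunit, and Atp5md). Their differences ran from 0.50 (Atp5md, adjusted p = 0.0451) to 0.88 (Uqcr11, adjusted p = 0.000952).

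This comparison leaned on single arrays. Without D replicate 3 it gave 5 calls (6.92% of all genes) and a median of 0.18, and without D replicate 1 it gave 27 calls (9.38% of all genes). The calls of Ndufa12, Ndufb6, Cox7b, Atp5b and Atp5md were lost without D replicate 3. Without D replicate 2 it gave 5 (4.97%), leaving out 1 array of DB#2 gave 1 to 3 (3.64% to 4.09%), and a fit of these 2 lines alone gave 0 (1.45%). On slide 2, which holds D replicate 3, the median difference was 0.87, and on slides 1 and 3 it was 0.19 and 0.21. With the slide as a block 34 of 91 genes passed (37.4%), beside 11.5% of all genes. When D replicate 3 was also left out of that fit, 16 passed (17.6%, against 10.5% of all genes).

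**Figure D2:**
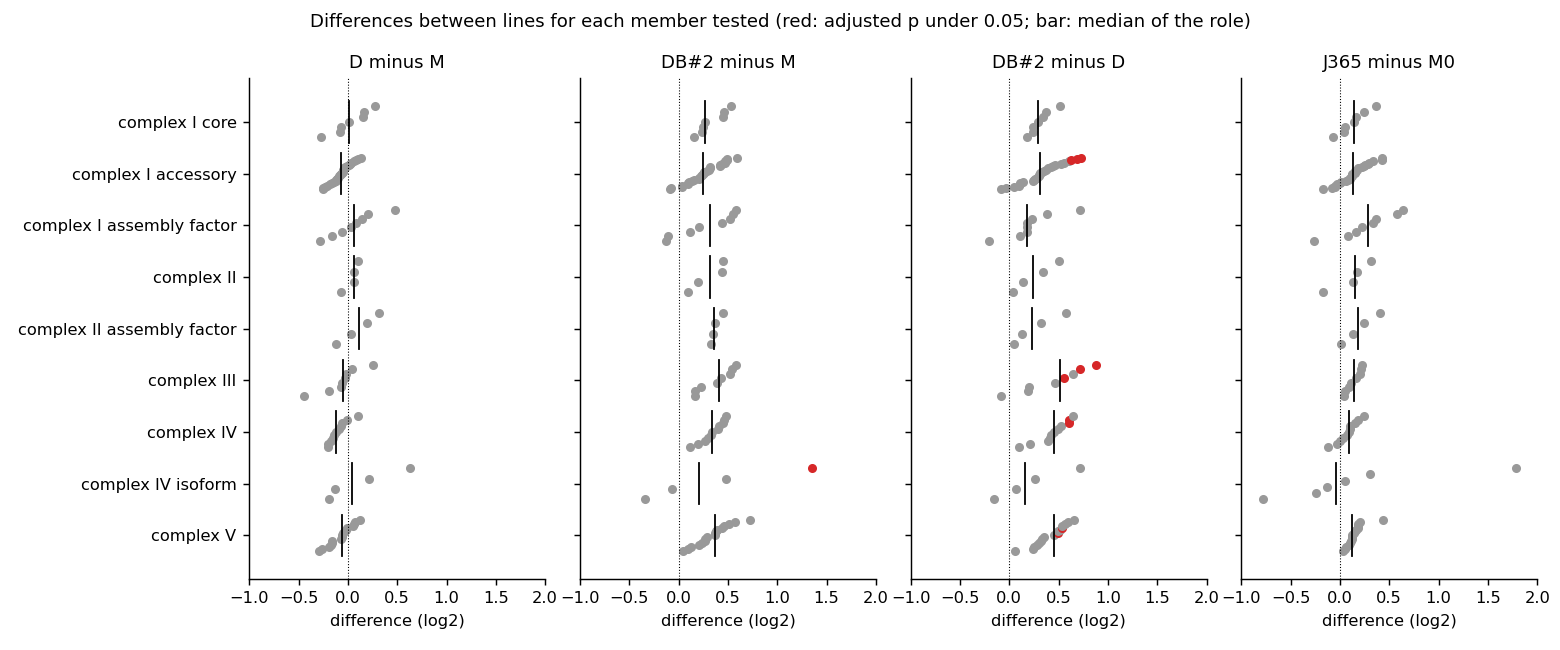
Difference in level (log2, x axis) for each gene tested, grouped by complex and role (y axis), in D against M, DB#2 against M, DB#2 against D and J365 against M0; red points passed the test, grey points did not, and bars mark the median of a role. In both comparisons of DB#2 the points lie mostly to the right of 0, with medians of 0.32 and 0.34, while those of D against M lie about -0.06.

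Uqcr11, a small subunit of complex III, set DB#2 apart most clearly. Its level was 7.20, 7.30 and 7.22 in DB#2 and 6.81, 6.74 and 6.89 in M. It was 6.72, 6.34, 5.97 and 6.41 in D, 6.47, 6.44, 6.44 and 6.41 in DB#1 and 6.63, 6.50 and 6.59 in DB#3. No array of another melanoma line reached the lowest DB#2 array, and the arrays of D, DB#1 and DB#3 all lay below those of M.

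Across the 5 melanoma lines Uqcr11 was 1 of 2 genes of the group that differed (limma moderated F test, adjusted p = 0.00402), the other being Cox7a1 (adjusted p = 0.0333), while 7.19% of all genes tested did. The F test of Uqcr11 held in all 28 alternatives tried, and that of Cox7a1 was lost in 12 of 28. DB#2 exceeded D by 0.88 (SE 0.15), DB#1 by 0.80 (SE 0.15, adjusted p = 0.00273) and DB#3 by 0.67 (SE 0.17, adjusted p = 0.0216). The comparisons with DB#1 and DB#3 were added after the values had been seen, and Uqcr11 was the only gene of the group to pass in either, beside 5.47% and 4.43% of all genes. The difference between DB#2 and M, 0.43 (SE 0.17), did not pass (adjusted p = 0.237), although it was 0.42, 0.46 and 0.41 within the 3 slides. The call against D was lost only in the fit of these 2 lines alone, and the call against DB#3 was lost when any 1 of the 6 arrays was left out.

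In those added comparisons the rest of the group leaned the same way. The difference was above 0 for 79 of 91 genes against DB#1 (median 0.23) and for 78 of 91 against DB#3 (median 0.21), where the medians over all genes were -0.02 and -0.01. DB#2 lay wholly above DB#1 for 41 genes (45.1%, against 11.5% of all genes) and wholly above DB#3 for 35 (38.5%, against 13% of all genes). The 4 comparisons of DB#2 share its 3 arrays and are not independent of each other.

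Other members of complex III and complex I followed. Uqcrh, the hinge protein of complex III, stood at 8.07, 8.35 and 7.95 in DB#2, against 7.59, 7.61, 6.90 and 7.54 in D and 7.52, 7.47 and 7.81 in M. Its DB#2 arrays lay above all of D and M, by 0.71 against D (SE 0.18, adjusted p = 0.0171) and by 0.52 against M (SE 0.19, adjusted p = 0.196).

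Ndufa12, an accessory subunit of complex I, stood at 7.10, 7.17 and 6.82 in DB#2 and at 6.72, 6.45, 5.77 and 6.27 in D. The difference was 0.73 (SE 0.20, adjusted p = 0.0342), and its M arrays, at 6.59, 6.27 and 6.82, reached the lowest DB#2 array. The call of Ndufa12 was lost in 8 of 18 alternatives, the fit without D replicate 3 among them. Ndufa4, now known as a subunit of complex IV, was at 7.17, 7.19 and 7.13 in DB#2 and 6.91, 6.55, 6.14 and 6.63 in D, a difference of 0.61 (SE 0.15, adjusted p = 0.0155). Its M arrays (6.83, 6.49 and 6.78) also lay below, without passing the test (difference 0.46, adjusted p = 0.151). The other subunits named here because the study lists them in its tables did not pass in either comparison. What the study found for each is not set beside these values. Against M the difference of DB#2 was 0.45 for Ndufs1, 0.27 for Ndufs3, 0.23 for Ndufa10 and 0.21 for Ndufa13, and it was 0.33 for Cox5a of complex IV and 0.44 for Sdhb, the iron-sulfur subunit of complex II.

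In complex V, Atp5c1, the gamma subunit that turns inside the catalytic head, had the largest difference of DB#2 against M after Cox7a1. Its level was 8.14, 8.11 and 7.90 in DB#2 and 7.45, 7.02 and 7.50 in M, with no overlap, and the difference of 0.73 (SE 0.23) had an adjusted p of 0.0959. The alpha subunit Atp5a1 was at 8.20, 8.27 and 8.04 in DB#2 and 7.73, 7.25 and 7.83 in M, a difference of 0.57 (SE 0.18, adjusted p = 0.113). With the slide as a block the adjusted p fell to 0.0258 for Atp5c1 and 0.0235 for Atp5a1.

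The stretch before the start site is shown for 4 genes, Uqcr11 and Uqcrh because they were higher in DB#2 than in D, Cox7a1 because it was called against M, and Cox6a1, the common counterpart of a muscle isoform, because it holds both of the classical motifs searched. The sequences are from RefSeq on build GRCm38.p6, written 5′ to 3′ on the gene's own strand and ending at the base before the start, with capitals marking a match on either strand to the NRF1 palindrome (GCGCA followed at once by its reverse complement) or to the ETS core CCGGAAG. The windows are chr10:80406822-80407071 on the minus strand for Uqcr11, chr4:116075071-116075320 on the minus strand for Uqcrh, chr5:115348959-115349208 on the minus strand for Cox6a1 and chr7:30183921-30184170 on the plus strand for Cox7a1.
Uqcr11: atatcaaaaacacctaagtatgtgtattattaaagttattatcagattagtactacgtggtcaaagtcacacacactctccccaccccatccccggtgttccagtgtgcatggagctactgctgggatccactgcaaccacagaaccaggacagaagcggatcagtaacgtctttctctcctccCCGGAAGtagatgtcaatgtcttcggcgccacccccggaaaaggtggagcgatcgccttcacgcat
Uqcrh: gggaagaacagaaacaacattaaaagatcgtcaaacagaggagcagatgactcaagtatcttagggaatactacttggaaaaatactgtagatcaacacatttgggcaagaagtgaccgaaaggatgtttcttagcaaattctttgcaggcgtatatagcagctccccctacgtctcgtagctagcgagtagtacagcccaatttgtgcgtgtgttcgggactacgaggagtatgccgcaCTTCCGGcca
Cox6a1: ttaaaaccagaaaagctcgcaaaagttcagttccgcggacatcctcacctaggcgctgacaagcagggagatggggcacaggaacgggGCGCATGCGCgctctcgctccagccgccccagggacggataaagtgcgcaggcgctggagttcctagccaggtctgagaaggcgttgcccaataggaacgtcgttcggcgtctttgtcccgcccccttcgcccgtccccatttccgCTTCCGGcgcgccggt
Cox7a1: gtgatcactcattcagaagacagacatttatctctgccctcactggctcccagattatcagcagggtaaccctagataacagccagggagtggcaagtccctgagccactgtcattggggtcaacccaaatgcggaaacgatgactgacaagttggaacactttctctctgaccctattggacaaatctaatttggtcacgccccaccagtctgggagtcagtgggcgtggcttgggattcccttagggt

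Of the 95 genes 78 had an entry in the promoter table. In the 250 bases upstream, the ETS core was found in 16 of the 78 (20.5%) against 7.83% of all 27025 genes of the table, and the NRF1 palindrome in 5 (6.41%) against 0.877%. The table is not limited to genes read on these arrays. Whether other genes read as widely hold these motifs as often was not tested. Uqcr11 holds the ETS core 66 bases and Uqcrh 10 bases before the start, and Cox6a1 holds the palindrome at 162 and the ETS core at 16 bases. Of the 9 genes higher in DB#2 than in D that had an entry, 3 held the ETS core and 0 the palindrome. The element TNAAGGTCA of the estrogen-related receptors, searched after the data had been seen, was found in 2 of 78 genes (2.56%, against 1.3% of all) and in 0 of those 9. The Cox7a1 window held none of the 3. These are matches of letters and do not show that a factor was bound.

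Among 12 regulators of mitochondrial genes, Ppargc1a and Esrra were higher in DB#2, where 3.44% of all genes tested were called against M. Ppargc1a encodes PGC-1alpha, a coactivator of mitochondrial biogenesis, and Esrra encodes the estrogen-related receptor alpha, a nuclear receptor through which PGC-1alpha is known to act. The level of Ppargc1a was 4.16, 3.96 and 3.80 in DB#2 and 1.35, 0.27 and 0.16 in M. It was 2.17, 0.96, 0.47 and 0.59 in D, 2.40, 1.34, 1.42 and 1.49 in DB#1 and 2.10, 1.11 and 1.35 in DB#3. Every DB#2 array lay above every array of the other melanoma lines.

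DB#2 exceeded M in Ppargc1a by 3.38 (SE 0.38, adjusted p = 6.49e-06), which was 3.80, 3.89 and 2.45 within the 3 slides, and a second probe of the gene gave 3.48. The differences from D (2.93, adjusted p = 1.47e-05), DB#1 (2.31, adjusted p = 0.000282) and DB#3 (2.45, adjusted p = 0.000315) passed as well. In D and in DB#1 the differences from M, 0.45 and 1.07, did not pass (adjusted p = 0.765 and 0.132). Ppargc1a was not well above background in M0 or J365, and M was at least 25.7-fold higher than M0.

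Esrra stood at 4.87, 4.55 and 4.90 in DB#2 and 3.78, 3.60 and 3.35 in M. The arrays of D (3.97, 3.59, 3.47 and 3.91), DB#1 (4.16, 4.02, 3.65 and 3.91) and DB#3 (4.18, 4.0 and 3.79) also lay below all DB#2 arrays. The difference of DB#2 from M was 1.20 (SE 0.18, adjusted p = 0.000177), with 1.20, 1.27 and 1.12 within slides. It was 1.04 from D, 0.84 from DB#1 (adjusted p = 0.00323) and 0.78 from DB#3 (adjusted p = 0.0111). Against M both calls held in all 17 alternatives tried. The genes of NRF1, the GABP subunit Gabpa and the mitochondrial transcription factor Tfam gave differences of 0.11, -0.05 and 0.21 between DB#2 and M, and none passed. Myc, another regulator of the list, went another way, being higher than in M in D (1.04, adjusted p = 0.0106), DB#1 (0.95, adjusted p = 0.0163) and DB#3 (0.93, adjusted p = 0.0376), while DB#2 differed by 0.31 (adjusted p = 0.764). Whether any of these regulators acted on the subunit genes was not tested.

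**Figure D3:**
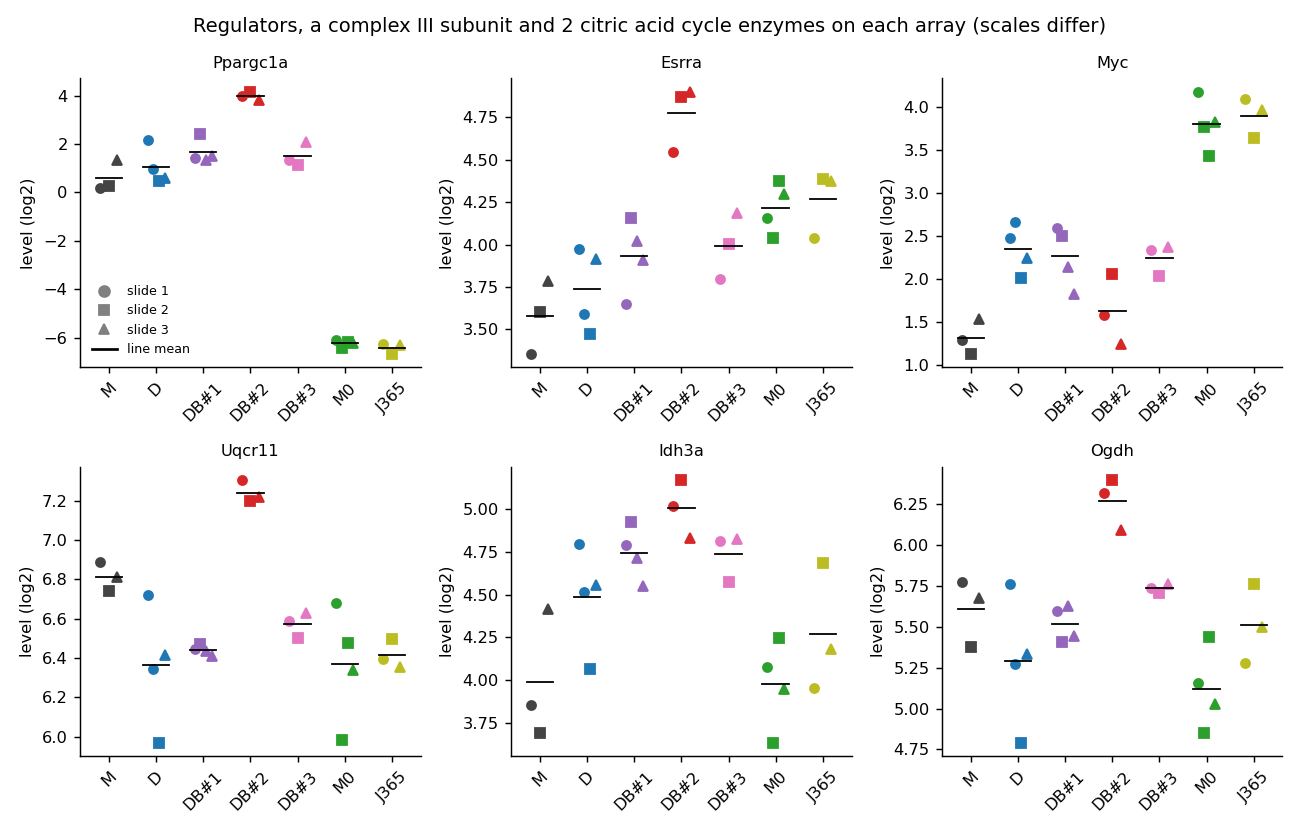
Level on each array (log2 of the processed signal less the array's 75th percentile, y axis) by cell line (x axis) of Ppargc1a, Esrra, Myc, Uqcr11, Idh3a and Ogdh; points are arrays, their shape gives the slide, and bars are line means. The DB#2 arrays of Ppargc1a (3.80 to 4.16), Esrra (4.55 to 4.90), Uqcr11 (7.20 to 7.30) and Ogdh (6.09 to 6.39) lie above every other melanoma array.

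Lists of related genes leaned the same way in DB#2. Against M the difference was above 0 for 13 of 13 genes of the tricarboxylic acid cycle (median 0.47), with 1 call, Idh3a, a catalytic subunit of isocitrate dehydrogenase (1.02, SE 0.22, adjusted p = 0.00853). Among all genes tested 3.44% passed against M, and 1 call says little about a list of this size. Idh3a was at 5.17, 5.02 and 4.83 in DB#2 and 4.41, 3.69 and 3.85 in M, and it was also higher than M in DB#1 (0.76, adjusted p = 0.0434). Against D, Ogdh (0.98, adjusted p = 0.00201) and the citrate synthase gene Cs (0.62, adjusted p = 0.0295) passed, beside 6.34% of all genes. Ogdh encodes the first component of the oxoglutarate dehydrogenase complex.

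Of 78 genes of the mitochondrial ribosome 65 had a difference above 0 between DB#2 and M (median 0.25). Only 1 of them, Mrpl35, passed (0.64, adjusted p = 0.0330), no more than the 3.44% of all genes that did. The only probe of Mrpl35 averaged -2.16 in M and -1.51 in DB#2, and it was well above background on no array of M0 or J365. For 27 genes of assembly and of copper or heme delivery the median was 0.11, with 20 above 0. The 1 call was the complex III assembly factor Uqcc3 (0.96, adjusted p = 0.0379), which is near the 3.44% of all genes. The 6 remaining respiratory genes, cytochrome c (Cycs) among them, were all above 0 with a median of 0.34 and no call. The median over the 7 melanocyte genes was 0.05, with no call. Of the genes of other cell types Pdgfra was not well above background on any DB#2 array and was at least 2.47-fold higher in M (adjusted p = 0.0482). Col1a1 went the other way, well above background on no M array and at least 1.85-fold higher in DB#2. Gfap, Aqp4, Mbp and Pecam1 were well above background on all 3 M arrays, and Rbfox3 and Aif1 on none of them. What part cell composition had in these differences was not tested.

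In D itself the respiratory genes gave no call against M, where 2.97% of all genes passed. Of 91 genes 31 had a difference above 0, with a median of -0.06, and 2 had an unadjusted p under 0.05, Cox7a1 (0.63, adjusted p = 0.420) and Uqcr11 (-0.45, adjusted p = 0.161). No gene of the group lay wholly above M and 1 lay wholly below it, beside 3.86% and 4.58% of all genes. That gene was Uqcr11. The sign of the median hung on single arrays: without D replicate 3 it was 0.11 and without M replicate 3 it was 0.02. Within slides it was 0.03, -0.33 and -0.07, the lowest on the slide of that array. In simulated data of this design, with noise drawn independently for each gene, 4% of genes changed by 0.5 and 58% of those changed by 1 were recovered. By these rates most differences of 0.5 would be missed. Arrays of a slide share deviations that the simulation lacks, so the rates are only a guide.

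In the other brain-site lines the group differed little from M. The medians were 0.06 in DB#1 and 0.11 in DB#3, with 65 and 70 of 91 genes above 0. Without M replicate 2 they were -0.03 and 0.02. The lines lay wholly above M for 8 genes (8.79%, against 12.1% of all genes) and 11 genes (12.1%, against 12.5%), which is near the background. A single gene, Cox7a1, passed in DB#1 (3.69% of all genes) and 0 passed in DB#3 (2.76%), where 4 had an unadjusted p under 0.05. Within slides the medians were 0.01, 0.29 and -0.04 for DB#1 and 0.04, 0.20 and 0.07 for DB#3.

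Complex IV contains subunits that exist in a common form and in tissue-restricted forms. Cox7a1, the heart and skeletal muscle form of subunit VIIa, was the gene of the group that differed most between M and the brain-site lines. Its level was -2.62, -2.74 and -2.20 in M, against -1.33, -1.62, -1.05 and -1.15 in DB#1 and -1.44, -0.96 and -1.10 in DB#2. It was -2.0, -1.27 and -0.94 in DB#3 and -1.88, -1.83, -1.47 and -2.37 in D. The arrays of DB#1, DB#2 and DB#3 all lay above those of M, while 1 D array lay among them.

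The difference in Cox7a1 was 1.23 in DB#1 (SE 0.30, adjusted p = 0.0204), 1.35 in DB#2 (SE 0.32, adjusted p = 0.0188) and 1.11 in DB#3 (SE 0.32, adjusted p = 0.0798), the last not passing. Within slides it was 1.15, 1.41 and 1.24 in DB#1 and 1.24, 1.30 and 1.52 in DB#2. These comparisons share the 3 arrays of M, and the call was lost in 6 of 18 alternatives for DB#1 and 6 of 17 for DB#2, normexp background correction among them. The common form Cox7a2 stood at 7.27, 7.04 and 7.30 in M and 7.45, 7.54 and 7.42 in DB#2 (difference 0.27, adjusted p = 0.586). The difference between DB#2 and M was 0.20 for Cox7a2l, a relative of both that takes part in respiratory supercomplexes, and did not pass.

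**Figure D4:**
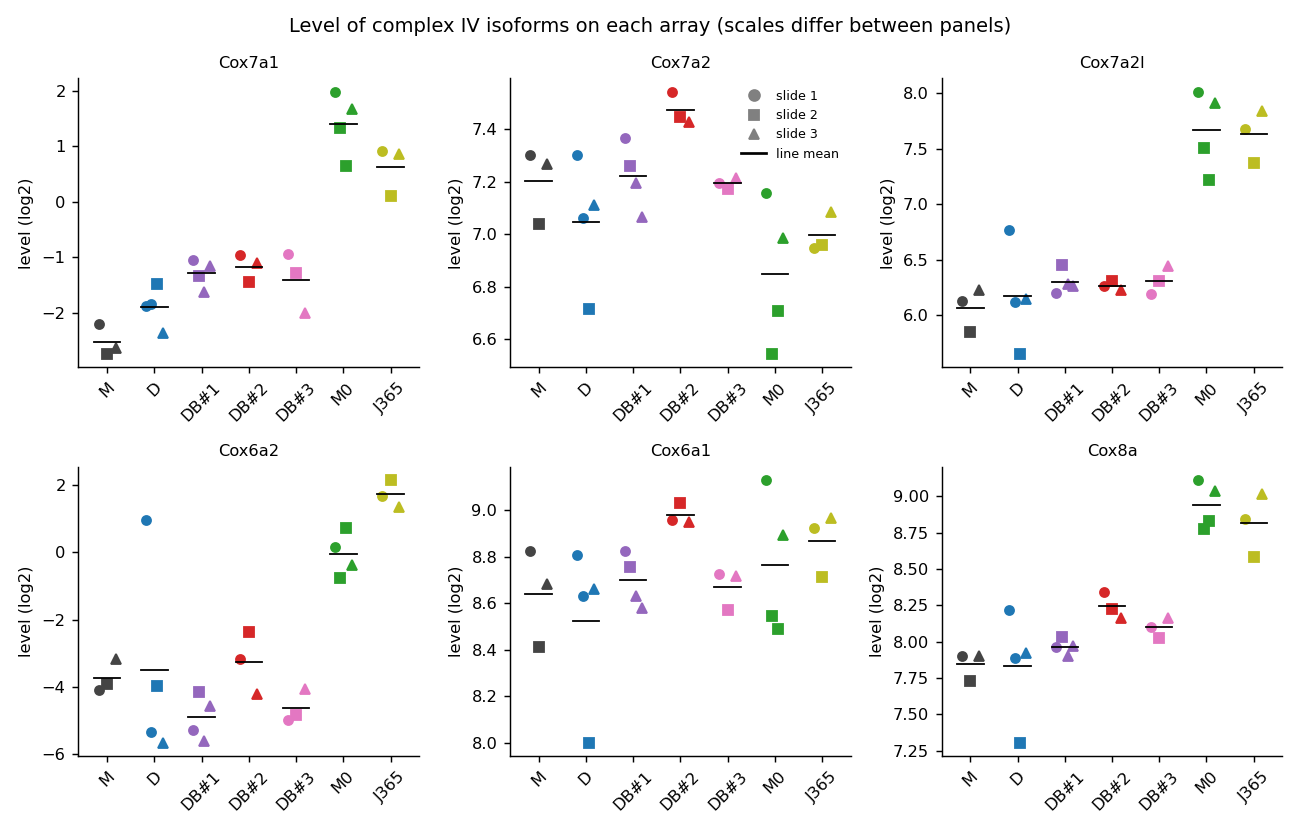
Level on each array (log2 of the processed signal less the array's 75th percentile, y axis) by cell line (x axis) of Cox7a1, Cox7a2, Cox7a2l, Cox6a2, Cox6a1 and Cox8a; points are arrays, their shape gives the slide, and bars are line means. Cox7a1 is between -2.74 and -2.20 in M, between -1.62 and -0.96 in DB#1 and DB#2 and between 0.11 and 1.98 in M0 and J365.

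The other restricted forms gave little in the melanoma lines. Cox4i2, the form associated with low oxygen, differed from M by -0.13, -0.03, -0.07 and -0.03 in D, DB#1, DB#2 and DB#3, and Cox6b2, the testis form, by -0.19, -0.61, -0.34 and -0.19, and none passed. Cox6a2, the muscle form of subunit VIa, ranged from -5.66 to -2.36 on 16 melanoma arrays and stood at 0.98 on D replicate 1. Cox8b and Cox8c were well above background on 2 arrays and 1 array of the 24, and Cox7b2 on D replicate 3 alone among the melanoma arrays.

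Between the myeloid lines no gene of the group passed. Of 93 genes tested 0 passed in J365 against M0, where 1.47% of all genes did, and 6 had an unadjusted p under 0.05. The difference was above 0 for 79 genes with a median of 0.13 (0.02 over all genes), and J365 lay wholly above M0 for 3 genes (3.23%, against 5.42% of all genes). The median was 0.03 without M0 replicate 3 and 0.22 without M0 replicate 1. Within slides the median was -0.21, 0.31 and 0.10. Among the 6 were the assembly factors Ndufaf2 (0.58, adjusted p = 0.226), Ndufaf4 (0.64, adjusted p = 0.531) and Ndufaf6 (0.36, adjusted p = 0.349), and Cox7a1 (-0.78, adjusted p = 0.371). Cox7a1 stood at 1.98, 1.68, 1.32 and 0.64 in M0 and 0.86, 0.91 and 0.11 in J365, and the ranges overlapped.

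Outside the group, the mitochondrial ribosomal gene Mrps30 was higher in J365 (0.87, adjusted p = 0.0140). It was 1 of 77 such genes tested, which is near the 1.47% of all genes that passed. The change from M to D was set against that from M0 to J365 in a test of the difference between the 2 contrasts. It gave 0 calls among 93 genes of the group, beside 2.08% of all genes, with 12 of 93 differences above 0 and a median of -0.19. Without D replicate 3 that median was -0.03, where it was -0.00381 over all genes, and without D replicate 1 it was -0.31. Cox7a1 had an estimate of 1.41 (adjusted p = 0.125).

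M and M0 differ in cell type, and 58.5% of all genes tested differed between them, 27.7% higher in M and 30.8% lower. Of 92 genes of the group 39 differed, 31 higher in M and 8 lower, with a median difference of 0.27 where the median over all genes was -0.13. Without M0 replicate 3 the median of the group was 0.14 and without M0 replicate 1 it was 0.40. The arrays of M lay wholly above those of M0 for 26 genes (28.3%, against 27% of all genes) and wholly below for 9 (9.78%, against 30.8%). Within slides the median was 0.12, 0.26 and 0.30. The labels do not say whether the myeloid lines grew in the same medium as the melanoma lines, so medium and cell type cannot be told apart. What the p20 tag of the M0 titles marks cannot be told apart from them either.

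Complex I, which holds the most genes of the group, also gave the most genes higher in M. Of 28 accessory subunits 13 were higher and 2 lower, and of 7 core subunits 2 were higher and 1 lower. Ndufb2, an accessory subunit of the membrane arm, was at 5.91, 5.63 and 6.10 in M and 4.86, 4.51, 4.17 and 3.76 in M0, a difference of 1.55 (SE 0.22, adjusted p = 4.98e-06). Ndufa5 differed by 1.51 (SE 0.19, adjusted p = 5.97e-07), and the assembly factor Ndufaf2 by 1.51 (SE 0.19, adjusted p = 1.01e-06). Ndufb10 and Ndufb11 were higher by 1.19 and 1.07. The core subunit Ndufv1, which binds NADH, went the other way, at 5.78, 5.53 and 5.76 in M and 7.05, 6.87, 6.52 and 6.47 in M0, with all M arrays below all M0 arrays (-1.04, SE 0.17, adjusted p = 2.94e-05). The accessory subunits Ndufa6 (-1.05) and Ndufb8 (-0.59) were lower in M too.

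In complex II, Sdhb was at 7.65, 7.28 and 7.60 in M and 6.44, 6.30, 5.87 and 5.94 in M0, without overlap (1.38, SE 0.18, adjusted p = 1.62e-06). It was the only one of the 4 subunits to pass. Of the assembly factors of complex II, Sdhaf3 was higher in M (0.92, adjusted p = 0.000464) and Sdhaf2 lower (-0.51, adjusted p = 0.0129). In complex III 4 of 8 were higher, Uqcrq by the most (0.82, adjusted p = 0.00148), and in complex V 5 of 17, with Atp5j the first of them (0.79, adjusted p = 0.00384), and none was lower.

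Complex IV was divided. Ndufa4 (1.13, SE 0.15, adjusted p = 1.64e-06), Cox7b (0.92), Cox6b1 (0.59) and Cox7a2 (0.35) were higher in M. Cox7a2l was at 6.22, 5.85 and 6.13 in M and 8.02, 7.91, 7.51 and 7.22 in M0 (-1.60, SE 0.21, adjusted p = 1.80e-06), and Cox8a at 7.90, 7.73 and 7.90 in M and 9.11, 9.03, 8.78 and 8.83 in M0 (-1.09, SE 0.16, adjusted p = 7.47e-06). In both, all M arrays lay below all M0 arrays. Of the restricted forms Cox7a1 had the largest difference, -3.92 (SE 0.30, adjusted p = 5.02e-10), and it was -4.18, -3.72 and -4.30 within slides. Cox6a2 differed by -3.66 (SE 1.01, adjusted p = 0.00390), with -3.17, -3.90 and -4.09 in M and 0.17, -0.37, -0.76 and 0.73 in M0. The common form Cox4i1 did not pass (-0.50, adjusted p = 0.0629). Ndufa4l2, not well above background on any array of M, was at least 2.13-fold higher in M0 without passing the test (adjusted p = 0.0587). The 2 probes of Cox7c disagreed, at 0.23 for the brighter and -1.09 for the other.

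**Figure D5:**
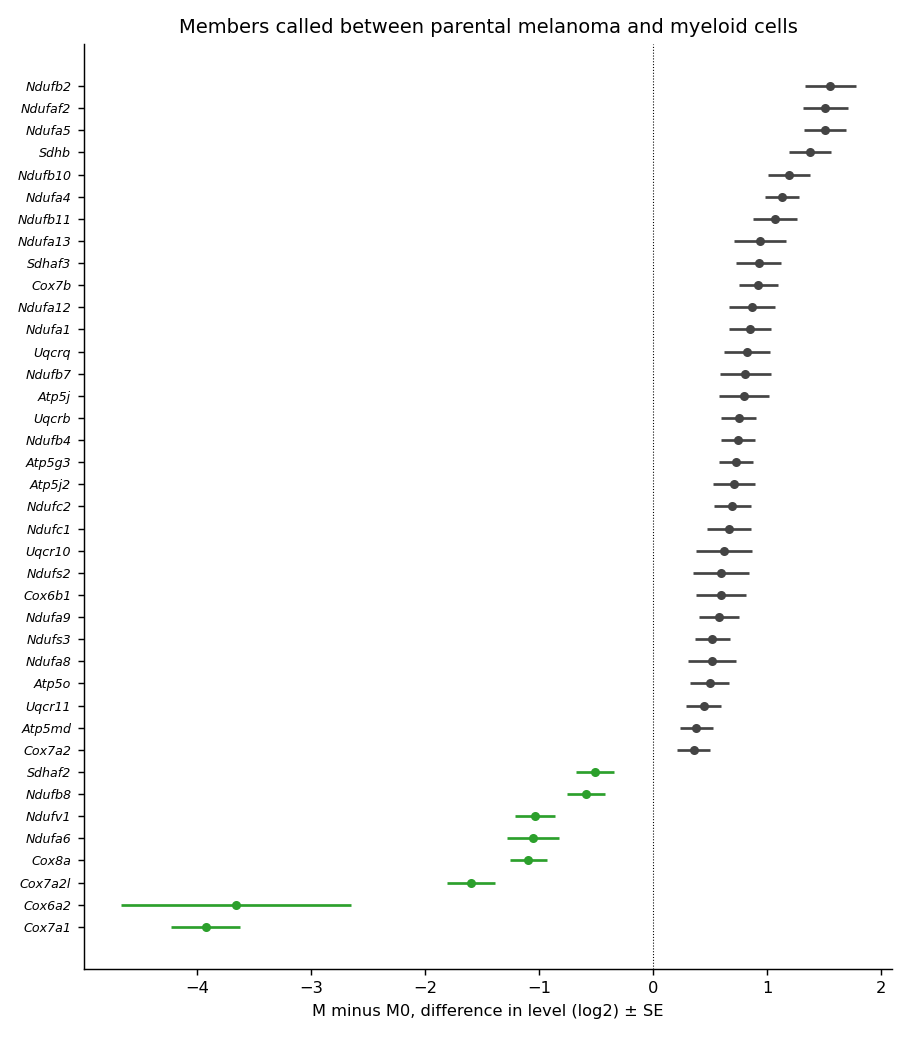
Difference in level between M and M0 (log2, x axis) of the 39 genes that passed the test (y axis), with bars of 1 standard error, grey above 0 and green below. The values run from -3.92 for Cox7a1 to 1.55 for Ndufb2, and 31 of the 39 lie above 0.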

How the data were processed

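Total RNA of 7 cell lines was labelled with Cy3 and hybridized to one-colour Agilent mouse arrays of 62976 spots, read with Feature Extraction 10.7.3.1, per the labels. The authors deposited the background-subtracted processed signal intensity of each spot, and a series table whose 1511424 values all equalled it. The methods name software for the statistics but no scaling or test. The array design refers to an older mouse build, so no array coordinates are given.

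From these intensities log2 levels were computed less each array's 75th percentile. Control and outlier spots were left out, spots of a probe were averaged, and a gene was read by its brightest probe. Gene names came from a RefSeq gene table of GRCm38.p6, in which 29269 of 29567 curated accessions were found. To be tested in a comparison, a gene had to be well above background throughout 1 of its lines or more. Contrasts were tested with limma 3.58.1 (R 4.3.3) in 1 model with a term per line over all 24 arrays, with Benjamini-Hochberg adjustment over all genes tested. Against a line with no array well above background, a fold is a lower bound, taken over the lowest signal well above background on each of its arrays, or the gene's own where higher. A pipeline test on simulated data recovered 92% of genes changed by 2 on the log2 scale in the comparison of D with M.

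Alternatives were quantile, normexp (offset 50, on median signal and background, since the files hold no mean signal), 75th percentile over detected probes, no scaling, other probe filters, the slide or the replicate number as a block, fits of the compared lines alone, and each array left out. The slide block without D replicate 3 and the comparisons of DB#2 with DB#1 and DB#3 were added after the data had been seen. Genes named are those called with the 5 largest rises and falls per comparison, subunits that the study lists, the paired isoforms of complex IV and, of the related lists, the 2 largest calls in each direction. Atp5c1, Atp5a1, Uqcc3, Nrf1, Gabpa, Tfam, the unadjusted hits and the other called subunits were named after their values were seen. The members and the gene lists were chosen with earlier results of these data known.

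No array was saturated, no 2 arrays held identical values, and the number of arrays limits the precision. The numbers of M0 replicate 4 and J365 replicate 4 are names given here, since their labels carry none.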

Additional observations from a re-analysis of the deposited data

Results flagged for a closer look

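In 4 of 102 sets of 4 arrays (30 named genes of the group, 3 regulators and the median of the subunits, each in D, DB#1 and M0) 1 array lay far from the other 3, and chance alone gives about 1 in 20. Uqcrh in D stood at 6.90 on replicate 3, where the others were between 7.54 and 7.61. Ndufa4 in DB#1 stood at 6.57 on replicate 2, where the others were between 6.70 and 6.72. Ndufs1 in DB#1 stood at 5.75 on replicate 3, where the others were between 5.44 and 5.49. Ppargc1a in DB#1 stood at 2.40 on replicate 1, where the others were between 1.34 and 1.49.

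The effect against M also differed between brain-site lines for Uqcr11. DB#2 exceeded DB#1 by 0.80 and DB#3 by 0.67 (limma, adjusted p = 0.00273 and 0.0216), comparisons added after the data had been seen.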

How the results depend on the processing

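The median over the group kept its direction in DB#2 against M, D, DB#1 and DB#3, in J365 against M0 and in M against M0 under every alternative tried. For D against M it was 0.12 with unscaled signals and -0.18 to 0.11 with single arrays left out. For DB#1 against M it was -0.04 after quantile normalization and -0.03 to 0.14 with single arrays left out, and for DB#3 -0.02 and 0.02 to 0.17. Unscaled signals also moved it to 0.55 for DB#2 against M, 0.47 for DB#2 against DB#3, 0.28 for J365 against M0 and 0.41 for M against M0. With the percentile over detected probes it was 0.05 for J365 against M0 and after quantile normalization 0.06.

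The counts of calls moved more, and the cause was not tested beyond what each setting changes. The share of all genes tested that passed in the same fit follows each count in brackets. After quantile normalization D against M gave 1 call (3.96%), DB#1 against M 2 (4.24%), DB#2 against M 10 (3.86%), DB#2 against D 26 (9.38%), DB#2 against DB#1 25 (7.14%), DB#2 against DB#3 17 (5.73%), J365 against M0 1 (2.61%), M against M0 62 (59.1%) and the F test over the melanoma lines 20 (8.85%). With the percentile over detected probes, D against M gave 1 (4.22%), DB#1 against M 2 (5.08%), DB#2 against M 11 (4.76%), DB#2 against D 22 (9.25%), DB#2 against DB#1 17 (8.38%), DB#2 against DB#3 7 (6.56%) and the F test 10 (9.88%). Unscaled signals gave 31 for DB#2 against M (5.99%), 22 for DB#2 against D (5.85%), 20 and 23 for DB#2 against DB#1 and DB#3 (6.48% and 7.95%), 1 for J365 against M0 (1.8%) and 18 for the F test (7.59%). Normexp gave 0 for DB#1 against M (3.24%), 3 for DB#2 against M (3.2%), 4 for DB#2 against DB#1 (5.1%) and 2 for DB#2 against DB#3 (4.52%).

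With no filter on dim probes, DB#1 against M, DB#2 against M and DB#2 against DB#3 gave 0 (1.24%, 1.09% and 1.3%), DB#2 against D 1 (2.01%) and the F test 1 (2.39%). The mean of detected probes gave 2 for DB#2 against DB#1 (5.71%). A fit of the compared lines alone gave 0 for DB#2 against D (1.45%) and 9 for DB#2 against DB#1 (7.68%).

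With the slide as a block, DB#2 against M gave 6 (5.31%), DB#3 against M 1 (3.93%), DB#2 against D 34 (11.5%), DB#2 against DB#1 9 (9.33%), DB#2 against DB#3 5 (7.43%) and the F test 11 (11.4%). Without D replicate 3 the same block gave 20 (7.34%), 1 (5.25%), 16 (10.5%), 16 (12.2%), 7 (9.9%) and 10 (13.2%) in that order, and 2 for J365 against M0 (4.19%).

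With single arrays left out, the count ran from 1 to 27 for DB#2 against D (3.64% to 9.38%; median 0.18 to 0.48), from 0 to 1 for D, DB#1, DB#2 and DB#3 against M (1.6% to 4.33%) and for the difference between the 2 contrasts (1.55% to 3.21%), from 1 to 2 for DB#2 against DB#1 (2.84% to 4.11%), from 0 to 0 for DB#2 against DB#3 (2.78% to 3.2%), from 33 to 47 for M against M0 (52.4% to 57.6%) and from 1 to 7 for the F test (5.08% to 9.46%).

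The replicate numbers did not pair the arrays: over 49 pairs of the same number the correlation of deviations from the line means ran from -0.80 to 0.91 with a median of 0.04, against a median of 0.52 over 81 pairs on the same slide. With the replicate number as a block DB#2 against DB#3 gave 0 calls (2.56%), DB#2 against D 10 (6.76%) and M against M0 36 (58.6%). Spread within lines limits what can be seen: the mean level of the subunits varied between arrays of a line with an SD of 0.16.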
